A study of Petromyzon marinus with 10 samples.

Results

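Divergent pairs are neighbouring loci that lie head to head on opposite strands, so that their transcripts start close to each other and run apart. A pair was counted here when a minus-strand locus ended 1 to 1000 bp before the start of a plus-strand locus on the same scaffold, both with at least 2 exon records, a span under 100000 bp and a mean raw count of at least 10. The distance is the start of the plus-strand locus minus the end of the minus-strand one. Of 1815 such pairs at this distance, 819 had the exon records, 701 of these were also short enough, and 413 pairs passed all conditions. They hold 826 of the 57134 assembled loci, no locus belongs to more than 1 pair, and 18907 loci pass the same exon, span and count conditions. The rule uses no measured change between treatments, though it was set with earlier results of these data known.

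In vertebrate genomes, head-to-head genes often share a short stretch of DNA between their starts that can act as a bidirectional promoter. Many such pairs in mammals are housekeeping genes, and many active promoters also give rise to a non-coding transcript on the opposite strand. Partners that share a promoter can be expressed together, and they can also be held at different levels by elements of their own.

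The tissue was the brainstem of larval sea lampreys (Petromyzon marinus), which holds the neurons that send axons down the spinal cord. All animals were larvae aged 5 to 7 years from the river Ulla in Spain, and all had a complete transection of the spinal cord. In 5 libraries the larvae had been kept in water with baclofen, an agonist of the metabotropic GABAB receptor, and in 5 control libraries they had not. Each library pooled the brainstems of several animals, so the spread between libraries is that between pools. The text of the series places the libraries 29 days after the injury, whereas the study's own text gives an earlier day for its baclofen experiment.

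Total counts ran from 12774386 to 19566056 fragments per library, with at least 1 count at 45332 to 47868 loci. The gene names used here come from the study's own lists of differentially expressed genes, which name 66 loci. Of the names fixed as cell type markers, the 4 neuronal genes CPLX1, GABRA5, MAP6 and CARTPT, the 3 leukocyte genes PTPRC, VLRA and CD62L, and the intermediate filament gene VIM had counts in all 10 libraries. Summed over each list, normalised counts (raw counts divided by the size factor of the library) were 17553 to 19723 with baclofen and 16495 to 18413 in controls for the neuronal genes. CPLX1 made up most of this sum and was higher with baclofen (group means 15353 and 13694), as was MAP6 (58.2 and 34.1). GABRA5 (1200 and 1310) and CARTPT (2152 and 2290) were lower. The leukocyte genes summed to 721 to 945 with baclofen and 881 to 1119.4 in controls, with PTPRC higher with baclofen (group means 319 and 217) and VLRA (466 and 696) and CD62L (41.9 and 98.3) lower. VIM ran from 10123 to 11650 over all libraries. The study's lists hold genes differentially expressed in these libraries and genes from its separate GABA experiment. Group differences in genes chosen on these libraries are no independent evidence on cell types. The part of leukocytes in the results that follow was not tested. In whole brainstems, fewer cells of a type and less RNA per cell cannot be told apart.

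The 413 pairs lay on 145 scaffolds, with at most 14 on one of them. The median distance between partners was 286 bp (quartiles 126 and 538 bp). In 254 pairs another assembled locus of either strand overlaps the interval, in whole or in part, and in 159 nothing else was assembled there. The span of 366 of the 826 members overlaps that of another locus on the same strand, but 0 of them share an exon with one. At the edge of the rule, the pair with a distance of 997 bp had a correlation between partners of 0.57 over the libraries. Pairs at 987 bp included correlations of 0.22 and −0.62. The pairs just outside the rule, at 1004 and 1006 bp, had 0.34 and −0.19. At the other edge, the lower partner had a mean raw count of 10.2 and 10.3 just inside (r = 0.78 and 0.02) and of 9.8 in both pairs just outside (r = −0.20 and 0.11).

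Members of divergent pairs were more abundant than most loci that pass the same conditions. Their median normalised count was 307, against 148 over all 18907 loci, and per kilobase of exon it was 87.0 against 60.8. They were also longer, with a median of 3024 bp of exon in 6 exon blocks against 2434 bp in 5. Their coefficient of variation over the 10 libraries had a median of 10.8%, against 14.1% over all loci. Counting error alone would give medians of 5.67% and 8.15% at these depths.

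The levels of the partners bore little relation to each other. Per kilobase of exon, the minus-strand partner was the higher one in 211 pairs and the plus-strand partner in 202. Partners lay within 2-fold of each other in 154 pairs and more than 10-fold apart in 63. The median size of the log2 ratio between partners was 1.42, against 1.47 in 330 convergent pairs (tail to tail under the same limits), 0.77 in 1548 tandem pairs (on the same strand) and 1.52 in combinations of a minus-strand member with a plus-strand member of another pair on another scaffold. Across pairs, the log2 levels of partners had a Pearson correlation of 0.09 in divergent, 0.09 in convergent and 0.41 in tandem pairs. Loci of one strand can be pieces of the same transcript, which opposite strands cannot, and how many of the tandem pairs are such pieces was not tested.

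The widest gap in level was found on scaffold PIZI01000017.1 of the germline assembly Pmar_germline 1.0. There the minus-strand locus MSTRG.12608 (202376 to 209424, 6 exon blocks) and the plus-strand locus MSTRG.12609 (209516 to 225138, 12 exon blocks) lie 92 bp apart. With baclofen, MSTRG.12608 had 9678, 9805, 9866, 8756 and 8782 normalised counts (replicates 1 to 5), and in controls it had 7223, 11229, 11584, 11035 and 9801. Those of its partner were 498, 485, 472, 543 and 521 with baclofen and 507, 530, 482, 473 and 490 in controls. The controls enclosed the baclofen libraries at MSTRG.12608, and the groups overlapped at MSTRG.12609 as well. Per kilobase the levels were 11821 and 53.0 normalised counts, 223-fold apart, and the correlation of the partners was short of the threshold (r = −0.39, permutation p = 0.269; rho = −0.54, permutation p = 0.113; r = −0.38 without the 2 libraries farthest from the median; adjusted p = 0.634 and 0.512 over 2291 neighbouring pairs). Here and below, the 2 libraries left out are those farthest from the median of the minus-strand partner, whatever the values of the plus-strand one.

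Among pairs with mean raw counts of at least 100 in both partners, the next widest gap lay on PIZI01000042.1, where MSTRG.26207 (9705433 to 9722748, minus strand, 14 exon blocks) and MSTRG.26208 (9722813 to 9767696, plus strand, 4 exon blocks) are 65 bp apart. The first had 6103.5 to 9145 normalised counts over the libraries and the second 142 to 236. Their levels per kilobase, 2957 and 16.4, were 180-fold apart, and r was 0.06 (permutation p = 0.864; rho = 0.16, permutation p = 0.659; adjusted p = 0.945 and 0.888; r = −0.06 without the 2 libraries farthest from the median). Both pairs were chosen for this difference, and in both the partners start less than 100 bp apart.

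The question put to the libraries was whether partners vary together. Over the 10 libraries the Pearson correlation of log2(normalised count + 1) between partners had a median of 0.228 (quartiles −0.07 and 0.48) in divergent pairs, with a jackknife SE over libraries of 0.054. It was positive in 288 pairs and negative in 125, over 0.8 in 17 pairs (4.12%) and under −0.8 in 2. The median was 0.119 in convergent pairs, 0.238 in tandem pairs and 0.1005 in 168240 combinations of members that are not partners and lie on different scaffolds. The difference between partners and non-partners was 0.128 (jackknife SE 0.037). It ran from 0.114 to 0.152 when each library was left out in turn. All classes share the same 10 libraries and their depths, and the differences between classes were not tested.

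**Figure D1:**
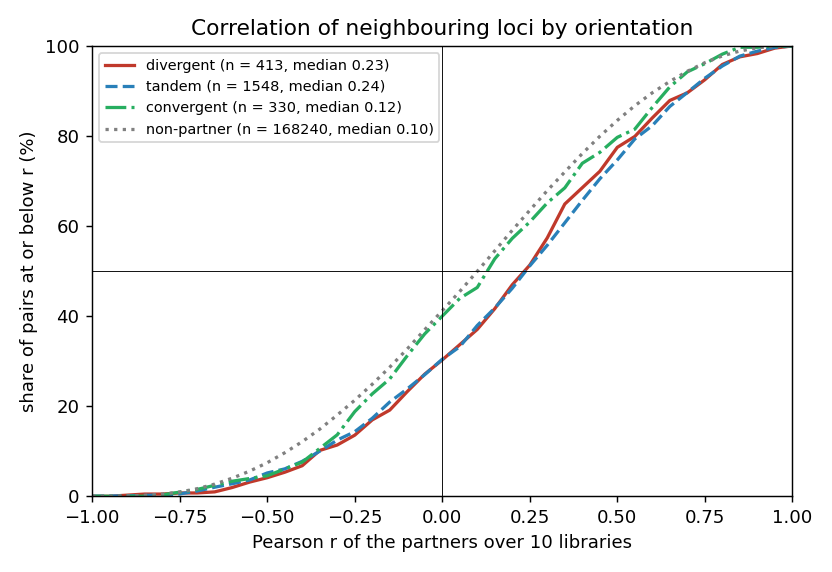
Cumulative share of pairs (vertical axis, %) against the Pearson correlation of their loci over 10 libraries (horizontal axis), for divergent, tandem and convergent pairs and for members that are not partners. The curve of divergent pairs (median 0.228) runs close to that of tandem pairs (0.238) and to the right of those of convergent pairs (0.119) and of non-partners (0.1005).

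The difference was smaller in deeply counted pairs. In the 249 divergent pairs with a mean raw count of at least 100 in both partners the median r was 0.294, but the combinations of non-partners in the same set also had a higher median, 0.226, and the difference came to 0.068 (jackknife SE 0.044; 0.042 to 0.103 with each library left out). With library trends on length and mean count removed, the medians were 0.144 for partners and 0.055 for non-partners, a difference of 0.089 (jackknife SE 0.043). In convergent pairs the same removal gave 0.033 and in tandem pairs 0.221. Scaling by total counts gave 0.127 for divergent pairs, 0.061 for convergent ones and 0.020 for non-partners. Divergent pairs had a higher median than convergent pairs and than non-partners in all 23 settings tried, and a higher one than tandem pairs in 7 of them. With the means of each replicate number removed together with the treatment means, the divergent and convergent medians were close, 0.189 and 0.183, against 0.081 in non-partners. Removing the treatment means from each locus left the median at 0.227, against 0.107 in non-partners.

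The correlation was higher where the lower partner had more counts. Its median was 0.105 in 83 pairs whose lower partner had a mean raw count of 10 to 30, 0.159 in 81 pairs at 30 to 100, 0.240 in 131 pairs at 100 to 300, 0.347 in 93 pairs at 300 to 1000 and 0.329 in 25 pairs over 1000. Distance within the limit of 1000 bp did not order the median. The medians were 0.213 in 77 pairs up to 100 bp apart, 0.269 in 111 pairs up to 250 bp, 0.195 in 110 pairs up to 500 bp and 0.264 in 115 pairs beyond that, and 215 pairs at 1001 to 2000 bp, outside the rule, had 0.214. Pairs whose exon lengths were within 2-fold of each other had a median r of 0.266 (190 pairs), those between 2-fold and 4-fold 0.275 (128 pairs), and those over 4-fold apart 0.105 (95 pairs). The median count of the lower partner differed between these length classes as well, 188, 161 and 64.8 normalised counts.

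**Figure D2:**
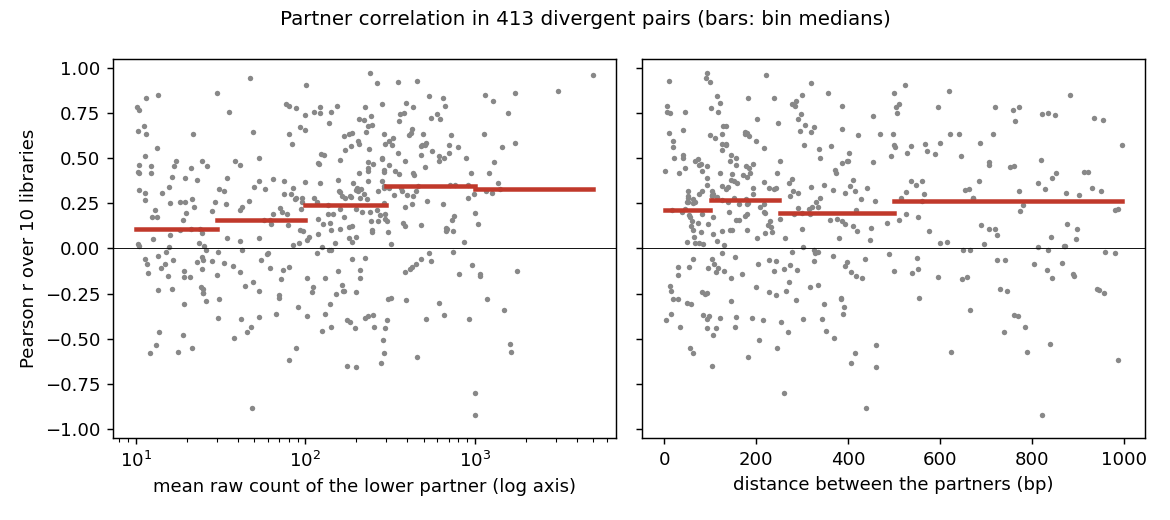
Pearson r of the partners over 10 libraries (vertical axes) in the 413 divergent pairs against the mean raw count of the lower partner (left, log axis) and the distance in bp (right), with 1 point per pair and red bars at the medians of the bins. The medians go from 0.105 to 0.347 over counts up to 1000 and stay between 0.195 and 0.269 over distance.

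Of the 413 divergent pairs, 9 (2.18%) had a correlation past an adjusted permutation p of 0.05, adjusted over all 2291 divergent, convergent and tandem pairs, of which 1.4% passed. At an unadjusted p of 0.05 the shares were 15.01% (62 pairs) and 16.2%. The 2291 pairs include the divergent ones and 1548 tandem pairs. By class, 1 convergent pair (0.303%) and 22 tandem pairs (1.42%) passed after adjustment. At the unadjusted p their shares were 13.03% and 17.18%. The divergent share was thus near that of all pairs at the unadjusted p. After adjustment it was above those of the other classes, on few pairs, and this difference was not tested. Of the 9 divergent pairs, 7 were positive and 2 negative. Their r had a size of at least 0.883, and of at least 0.790 without the 2 libraries farthest from the median. By rank correlation 1 of the 9 was past the threshold, and 3 were with library trends removed. With the treatment means removed none of the 413 was, under the exact permutation test within groups, nor was any convergent or tandem pair. That test has 14400 arrangements, and its smallest possible p passes the adjustment over 2291 pairs only if several pairs reach it. Its lack of calls therefore cannot show that correlations were lost. At an unadjusted p of 0.05, 49 divergent pairs passed it (11.9%, where 13.3% of all neighbouring pairs did). With treatment means kept, leaving out single libraries gave 1 to 8 pairs. By distance, 4 of the 77 pairs up to 100 bp apart passed with all libraries. Further apart, 1 of 111 pairs up to 250 bp, 2 of 110 up to 500 bp and 2 of 115 beyond that passed. This difference by distance was not tested.

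The 3 pairs with the highest correlation among the 248 with mean normalised counts of at least 100 in both partners are given as a description, since r chose them. The first, on PIZI01000730.1, joins MSTRG.44479 (17962 to 18944, minus strand, 2 exon blocks) and MSTRG.44480 (19037 to 39155, plus strand, 8 exon blocks), 93 bp apart. MSTRG.44479 had 369, 234, 262, 225 and 175 normalised counts with baclofen (replicates 1 to 5), and controls gave 315, 362, 373, 293 and 355. MSTRG.44480 had 306, 189, 205, 211 and 161 with baclofen and 240, 282, 282, 232 and 279 in controls. The partners tracked each other library by library, with baclofen replicate 1 high and baclofen replicate 5 lowest for both. Their r was 0.97, and also 0.97 with library trends removed and 0.96 within treatments.

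In the second, on PIZI01000909.1, MSTRG.45088 (5342 to 19820, minus strand) and MSTRG.45091 (20042 to 23799, plus strand) are 222 bp apart and among the most abundant members. MSTRG.45088 ran from 4585.5 to 7769 normalised counts and MSTRG.45091 from 3276 to 6302, with control replicate 1 the lowest library for both. Here r was 0.96 over the libraries but 0.50 with library trends removed. The third, on PIZI01000045.1, joins MSTRG.27355 (5159923 to 5173240) and MSTRG.27356 (5173250 to 5180706), only 10 bp apart, with r = 0.92 and 0.81 without the trends. Control replicate 1 was again lowest for both partners, at 3804 and 374 normalised counts.

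At the other end, MSTRG.28280 (6896858 to 6926779, minus strand, 13195 bp of exon) and MSTRG.28283 (6927602 to 6946143, plus strand, 3099 bp of exon) on PIZI01000047.1 had r = −0.92, which became −0.05 with library trends removed. Control replicate 1 was the highest library of the long partner (1146 normalised counts) and the lowest of the short one (6278). The negative correlation of MSTRG.31140 (4463559 to 4469457) and MSTRG.31141 (4469718 to 4569647) on PIZI01000055.1 did not follow those trends, at −0.80 before and −0.79 after their removal, but it fell in size to −0.37 without the 2 libraries farthest from the median. MSTRG.18121 (8377989 to 8391490) and MSTRG.18122 (8391951 to 8434081) on PIZI01000026.1 had r = −0.66 and −0.69, and −0.82 without those 2 libraries. Both had similar and low levels, 47.6 and 49.2 normalised counts per kilobase.

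Other abundant pairs had high correlations that did not pass the threshold after adjustment over 2291 pairs. In the pairs chosen for the highest level of the lower partner, MSTRG.11090 (13886429 to 13902306) and MSTRG.11091 (13902925 to 13910172) on PIZI01000014.1 ran from 3038 to 3727 and from 2445.5 to 3651 normalised counts. Their r was 0.87 (permutation p = 0.00136; rho = 0.89, permutation p = 0.0011; adjusted p = 0.0779 and 0.0924; r = 0.73 without the 2 farthest libraries, 0.45 with trends removed). MSTRG.10055 (467745 to 475762) and MSTRG.10056 (476263 to 485063) on PIZI01000013.1 ran from 18500 to 23299 and from 1470 to 1869, with r = 0.86 (permutation p = 0.00148; rho = 0.92, permutation p = 0.00045; adjusted p = 0.0807 and 0.0881; r = 0.77 without the 2 farthest libraries, 0.67 with trends removed).

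The 2 closest pairs with mean normalised counts of at least 100 in both partners were short of the threshold after adjustment. They do not speak for all close pairs, as MSTRG.27355 and MSTRG.27356, 10 bp apart, had r = 0.92. On PIZI01000023.1, MSTRG.16171 (2768679 to 2774523) and MSTRG.16172 (2774524 to 2782575) abut, at a distance of 1 bp, with 179 to 262 and 378 to 499 normalised counts. Their r was 0.43 (permutation p = 0.222; rho = 0.70, permutation p = 0.0314; adjusted p = 0.596 and 0.306; r = 0.41 without the 2 farthest libraries). On PIZI01000009.1, MSTRG.7554 (9010542 to 9019109) and MSTRG.7555 (9019113 to 9105694) lie 4 bp apart, with 264 to 366 and 1909 to 2159 normalised counts and r = −0.39 (permutation p = 0.258; rho = −0.38, permutation p = 0.280; adjusted p = 0.630 and 0.679; r = −0.59 without the 2 farthest libraries).

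The second question was whether partners change together with baclofen. Of the 826 members, 790 had a DESeq2 adjusted p-value, and 1 of them (0.127%) was differentially expressed at an adjusted p of 0.05, against 0.345% of the 23794 loci tested. At an unadjusted p of 0.05 there were 41 members (5.19%), against 5.8% of all tested loci. The baclofen and control libraries did not overlap at 12 members (1.52%; 5 higher and 7 lower with baclofen), against 1.25% of all tested loci. These shares are near or below the background. The quasi-likelihood test of edgeR called the same single member, and 0.0918% of all loci it tested. Without control replicate 1, DESeq2 called 26 of 600 tested members (4.33%; 1 higher and 25 lower), where 3.33% of all tested loci and 3.58% of those under the same exon, span and count conditions were called. These 26 members belong to 25 pairs, and in 1 of them both partners were called.

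The upregulated member was GPR12 (MSTRG.29343), which encodes an orphan G protein-coupled receptor. In mammals GPR12 signals without a known ligand through stimulatory G proteins and raises cyclic AMP, and in cultured rodent neuronal cells it promotes the outgrowth of neurites. GPR12 lies on PIZI01000050.1 from 7517283 to 7546407 on the plus strand (2 exon blocks, 11094 bp of exon), 66 bp from the unnamed minus-strand locus MSTRG.29342 (7503657 to 7517217, 3 exon blocks, 548 bp of exon). Its name was given in a list that the study chose on these libraries, so that list is no independent evidence of its direction.

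In the baclofen libraries, replicates 1 to 5, GPR12 had 1476, 1503.5, 1479.5, 1681 and 1653 normalised counts, against 1209, 1157, 1219.5, 999 and 1197 in the control libraries. Every baclofen library exceeded every control. The means were 1559 ± 100.1 and 1156 ± 91.0 (SD, n = 5 each). On the log2 scale GPR12 was higher by 0.43 ± 0.07 (SE), with an adjusted p of 1.69e-06 in DESeq2 and of 0.0115 in edgeR. GPR12 passed the threshold in all 18 alternatives tried, with log2 fold changes from 0.38 to 0.45.

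Its partner was close to the lower limit of the rule. MSTRG.29342 had 18.0, 23.5, 19.7, 29.5 and 20.6 normalised counts with baclofen and 35.6, 20.6, 12.9, 24.9 and 20.3 in controls, and the groups overlapped fully. The log2 fold change was −0.05 ± 0.30 (SE; DESeq2 adjusted p = 0.998), and the change of GPR12 lies within 2 SE of it. The log2 ratio of GPR12 to its partner averaged 6.08 ± 0.22 in baclofen and 5.67 ± 0.54 in control libraries (SD, n = 5 each), a difference within the spread (two-sided exact permutation test, p = 0.183; limma adjusted p = 0.889). Over the libraries the partners had r = 0.03 (permutation p = 0.934; rho = −0.02, permutation p = 0.974; adjusted p = 0.972 and 0.989; r = 0.07 without the 2 farthest libraries).

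**Figure D3:**
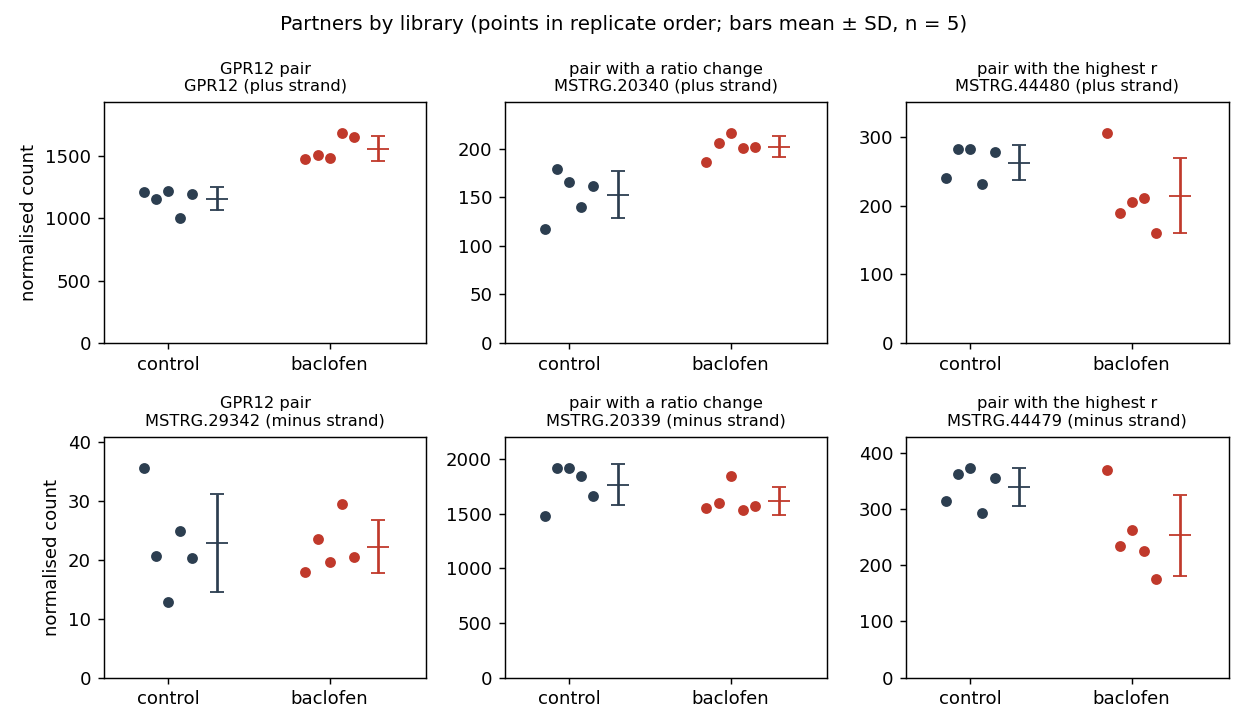
Normalised counts (vertical axes, from 0) of both partners in control and baclofen libraries for the GPR12 pair, the pair whose ratio changed and the pair with the highest r, with 1 point per library in the order of replicates 1 to 5 and bars at the mean ± SD (n = 5). GPR12 lies between 1476 and 1681 with baclofen and between 999 and 1219.5 in controls while its partner stays under 36. MSTRG.20340 is higher in every baclofen library than in any control, while the groups overlap at its partner MSTRG.20339.

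The difference between partners was also tested directly, as a change of their log2 ratio with treatment. With limma over all 2291 pairs, 1 of the 413 divergent pairs passed an adjusted p of 0.05, and 0.0873% of all pairs did. At an unadjusted p of 0.05 there were 20 divergent pairs, where 5.37% of all pairs passed. The 1 pair, singled out after its values were seen, joins MSTRG.20339 (6626807 to 6634560, minus strand, 5 exon blocks) and MSTRG.20340 (6634940 to 6643503, plus strand, 2 exon blocks) on PIZI01000030.1, 380 bp apart. Neither carries a gene name here.

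MSTRG.20340 had 187, 206, 216, 201 and 202 normalised counts with baclofen (replicates 1 to 5), where the controls had 117, 179, 166, 140 and 162. MSTRG.20339 had 1553.5, 1598, 1842.5, 1531.5 and 1574 with baclofen and 1483, 1916.5, 1919, 1845 and 1663 in controls. The groups did not overlap at the plus-strand locus and did at its partner. The log2 ratio of MSTRG.20340 to MSTRG.20339 averaged −2.99 ± 0.07 in baclofen and −3.53 ± 0.15 in control libraries (SD, n = 5 each), a change of 0.54 ± 0.10 (SE; limma adjusted p = 0.0487). Taken alone, the partners had log2 fold changes of 0.41 ± 0.12 (SE; DESeq2 adjusted p = 0.120) and −0.12 ± 0.08 (SE; DESeq2 adjusted p = 0.976). The call on the ratio was lost in 9 of 14 alternatives, in which the change stayed between 0.49 and 0.58 and the adjusted p went up to 0.196.

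Fold changes of partners had the same sign in 214 of the 379 pairs with both partners tested (56.5%, with a 95% Wilson interval of 51.4 to 61.4%, counting error only). That interval takes the pairs as independent, although all were measured in the same 10 libraries. With single libraries left out, the share ran from 51.7 to 63.3%. The share was 55.0% in convergent pairs, 59.8% in tandem pairs and 54.8% in combinations of non-partners. With all libraries, partners thus shared a sign about as often as members that lie on different scaffolds. Across pairs the log2 fold changes had a Pearson correlation of 0.06 in divergent, 0.16 in convergent and 0.29 in tandem pairs. Without control replicate 1 the share in the 379 divergent pairs was 63.3%, where 68.6% of the 790 members tested with all libraries were negative. The share in non-partners was not counted in that setting, so the comparison with them rests on the fit to all libraries.

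Both partners had an unadjusted DESeq2 p under 0.05 in 2 of the 379 pairs (0.528%), against 1.28% of all neighbouring pairs with both loci tested. Tandem pairs made up most of the latter, with 23 of 1356 (1.70%), and convergent pairs had 1 of 298 (0.336%). The 2 divergent pairs are named after their values were seen, and none of the 4 loci passed after adjustment. MSTRG.44479 and MSTRG.44480, the pair with the highest r, had log2 fold changes of −0.43 ± 0.15 and −0.30 ± 0.15 (SE; DESeq2 adjusted p = 0.432 and 0.829). MSTRG.11231 (345191 to 354065, minus strand) and MSTRG.11233 (354272 to 371309, plus strand) on PIZI01000015.1, 207 bp apart, differed in sign, at 0.22 ± 0.10 and −0.19 ± 0.09 (SE; DESeq2 adjusted p = 0.823 and 0.829). MSTRG.11231 had 292 to 344 normalised counts with baclofen and 219 to 313 in controls, and MSTRG.11233 246 to 286 and 280 to 345, so the groups overlapped at both.

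**Figure D4:**
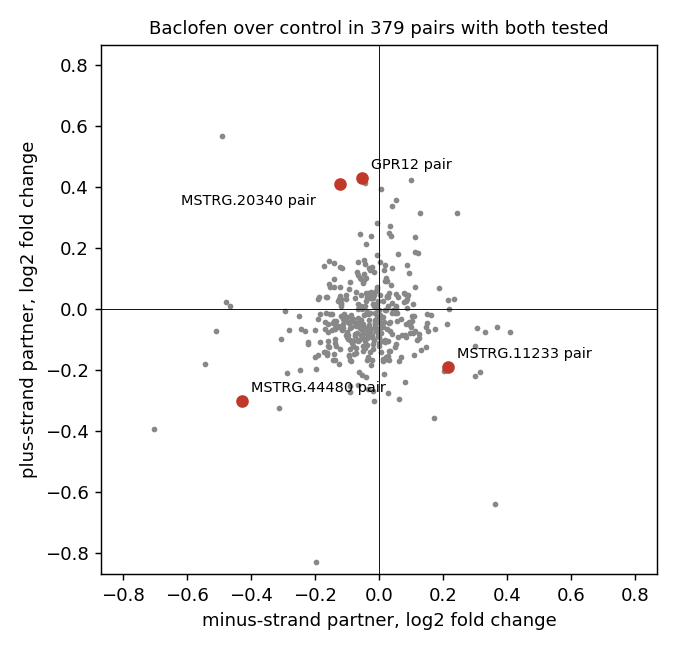
Log2 fold change (baclofen over control) of the plus-strand partner (vertical axis) against that of the minus-strand partner (horizontal axis) in the 379 divergent pairs with both partners tested, 1 point per pair. The points show no diagonal trend (Pearson correlation 0.06), and the GPR12 pair, at −0.05 and 0.43, lies above the centre.

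Members leaned towards lower values with baclofen, each by little. Of the 790 tested members 515 (65.2%) had a negative log2 fold change and 275 a positive one, with a median of −0.039 (jackknife SE 0.034). Over all tested loci under the same conditions 53.1% were negative, with a median of −0.009. The shares were 58.6% in loci of convergent pairs and 46.7% in loci of tandem pairs. It was negative in 256 of 397 minus-strand and in 259 of 393 plus-strand members. The lean was larger in abundant members, from 52.2% negative below 100 normalised counts to 74.3% above 1000, against 46.1% and 61.8% of all loci of the same abundance. Scaling by total counts gave 58.2% for the members and 47.2% for all loci under the same conditions. Removing library trends on length and mean count gave 59.9% and 50.5%. The median of the members was then −0.024.

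With baclofen the members held 4.11, 4.18, 4.19, 4.10 and 4.11% of all counts (replicates 1 to 5), and in the control libraries 3.99, 4.29, 4.34, 4.35 and 4.22%. Of the controls, 4 lay above every baclofen library and replicate 1 below all of them. The means were 4.14 ± 0.044% and 4.24 ± 0.15% (SD, n = 5 each), a difference within the spread of the controls (p = 0.175, two-sided exact permutation test). Control replicate 1 was the lowest of the 10 libraries at 277 members (33.5%), and at 21.4% of all loci under the same conditions. Without it the median log2 fold change of the members tested with all libraries was −0.063 (68.6% negative). Without control replicate 4 it was −0.024 (59.7% negative). The part of this library in the lean, beyond these values, was not tested.

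**Figure D5:**
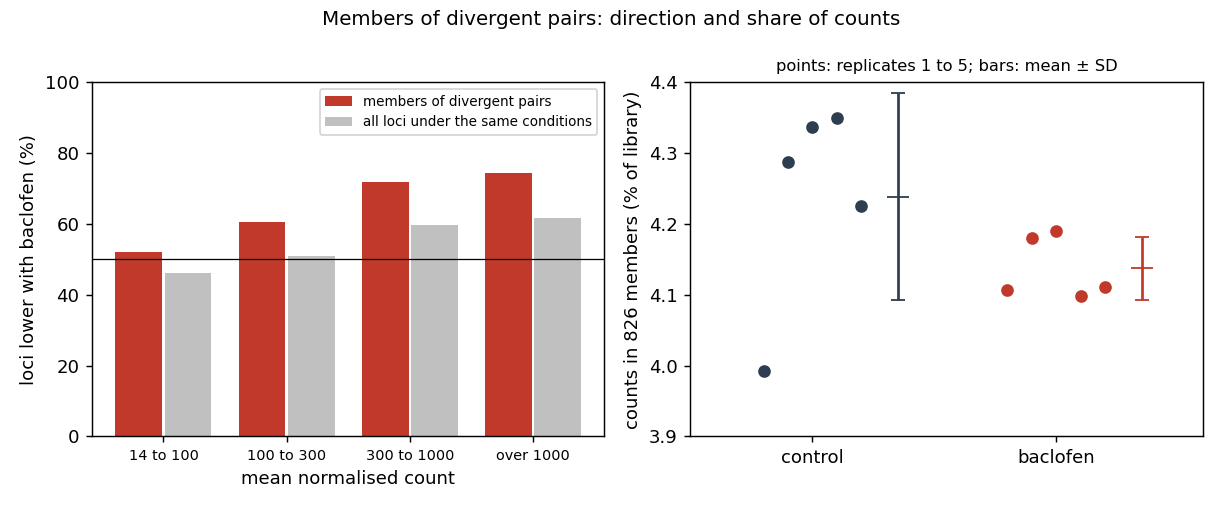
Left, percentage of tested loci with a lower normalised count with baclofen, by mean normalised count, for members of divergent pairs (red) and all loci under the same conditions (grey), with a line at 50%. Right, percentage of each library's counts held by the 826 members (axis from 3.9 to 4.4%), with points for replicates 1 to 5 and bars at the mean ± SD (n = 5); control replicate 1, at 3.99%, lies below the other 9 libraries.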

How the data were processed

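Stranded libraries were made from polyadenylated RNA. The authors aligned the trimmed paired-end reads with STAR to the germline assembly Pmar_germline 1.0, assembled loci with StringTie and counted fragments per locus with featureCounts on the strand of the protocol. Versions of these tools are not given in the sources used here. The deposited values are raw counts, not normalised, with the exon coordinates of each locus. Because counting used strand, opposite loci do not share fragments.

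Records of 2 loci that were broken over a pair of lines were rejoined. All 57134 loci entered DESeq2 version 1.42.0 (R version 4.3.3; treatment as the only term, Wald test, Benjamini-Hochberg adjustment; the study names the tool and the adjustment), and 23794 received an adjusted p-value. Fold changes are given as log2 of baclofen over control, without shrinkage. Correlations used log2(normalised count + 1), with 100000 permutations shared by all pairs and 14400 exact ones within treatments. Log2 ratios were tested with limma version 3.58.1 with a trend on abundance. Single values were compared by exact permutation over 252 arrangements, whose smallest p is 0.00794. Trends on length and count were removed by loess fitted where mean normalised counts reached 10. Alternatives were edgeR version 4.0.16, other scalings, filters, pseudocounts and distances, the replicate number as a block, and each library left out in turn. The fits were tested on simulated data.

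The pairs, lists and rules were chosen with earlier results of these data known. Named were pairs with a differentially expressed or named member, the 3 highest and 3 lowest r among pairs with mean normalised counts of at least 100, the 3 with the most abundant lower partner, the 2 closest with mean normalised counts of at least 100, and the 2 most unequal in level among pairs with mean raw counts of at least 100. A RefSeq gene table of a different assembly (UKy_Petmar_22M1) named no locus. Sequence was not used here.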

Additional observations from a re-analysis of the deposited data

Results flagged for a closer look

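In 60 groups of 5 values, both treatments of the 30 named loci, a library counted as far from its group when its gap to the next value took more than 0.71 of the range. This held in 5 groups, where chance gives about 1 in 20 groups, here 3. The expected number takes the groups as independent, but they share the same libraries and include partners chosen for their correlation.

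GPR12 had 999.19 normalised counts in control replicate 4, below the 1157 to 1219.5 of the other controls and on the side away from the baclofen libraries. MSTRG.20339, the minus-strand partner in the pair whose ratio changed, had 1842.5 in baclofen replicate 3, above the 1531.5 to 1598 of the rest of its group. MSTRG.10055, the most abundant of the named loci, had 23167 in baclofen replicate 3 against 19179 to 20116. MSTRG.16171, of the pair that abuts, had 179.04 in control replicate 1 against 245 to 262. MSTRG.26208, the low partner of an unequal pair, had 141.85 in control replicate 4 against 195 to 212. What set these libraries apart was not tested.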

How the results depend on the processing

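GPR12 stayed past the threshold in all 18 alternatives. The number of differentially expressed members was 1 and became 3 with total counts as size factors and 0 among pairs with mean raw counts of at least 100, which leave out the GPR12 pair; without single libraries it ran from 1 to 26. Values of 3 without baclofen replicate 1 and 2 without control replicate 2 belong to that range, and the 26 to control replicate 1. The median r of 0.228 became 0.127 with total counts, 0.144 with library trends removed and 0.294 with mean raw counts of at least 100. In 143 pairs without overlap on the same strand the median was 0.290, against 0.122 in non-partners of that set. The other 18 alternatives kept the median within its jackknife SE, from 0.195 to 0.260 without single libraries. The 9 pairs with a correlation past the threshold became 0 with treatment means removed. That setting also changed the permutation test to one with fewer arrangements, in which a pair can hardly pass after adjustment. They became 3 with library trends removed and 1 to 8 without single libraries. Without baclofen replicate 4 only 1 remained. The 1 pair with a changed ratio became 0 in limma without a trend and 0 to 1 without single libraries, lost when any one of the baclofen libraries or control replicate 3 or 4 was left out. The share of pairs with fold changes of the same sign ran from 51.7 to 63.3% without single libraries, the highest without control replicate 1. The median log2 fold change of members was negative in all 17 alternatives, all chosen after seeing the data. The causes of these differences were not tested.

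Replicate numbers do not pair the libraries: the correlation of deviations between same-numbered libraries ran from −0.158 to 0.026. With the replicate number as a block, 1 member was called, the median r was 0.189 with treatment means also removed (0.183 in convergent pairs), the ratio change of 0.54 had an adjusted p of 0.175 so that 0 pairs were called, the median log2 fold change of members was −0.037, and 55.9% of pairs had fold changes of the same sign. Depth limits the precision most in the 164 pairs with a partner under 100 mean raw counts.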
